A study of Homo sapiens with 4 samples.

Results

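The Th2 genes described here are 8: the cytokine genes IL4, IL5 and IL13, the receptor chain genes IL4R and IL13RA1, and the regulator genes GATA3, MAF and STAT6. They were chosen by name, and every probe set annotated with 1 of these symbols alone was taken. This gave 20 of the 54675 probe sets on the array, and 8 of 19775 named genes. The arrays were hybridised with total RNA of MyLa, a mycosis fungoides line, and of HH, a line of cutaneous T cell lymphoma. All cells were kept for 40 hours in 0.1% serum, and IL-32γ, a form of the cytokine interleukin-32, was either left out (control) or added at 5 ng/ml. Each line and condition has 1 array, 4 in all, and each line stands for 1 tumour. The series title sets IL-32 in mycosis fungoides against Th2 and Th9 polarization, and the question here is how the Th2 genes read in these lines with and without IL-32γ.

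Th2 cells are helper T cells that secrete IL-4, IL-5 and IL-13. GATA3 is their lineage-defining transcription factor, MAF (c-MAF) drives the IL4 gene in particular, and STAT6 is the factor that the IL-4 receptor activates. IL-4 binds the IL4R chain, which pairs with the common gamma chain (IL2RG) or with IL13RA1, and the pair of IL4R and IL13RA1 also receives IL-13. Malignant T cells of cutaneous lymphoma are known for a Th2-like cytokine profile, above all in advanced disease.

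All levels are log2 expression values after GCRMA, with 2.13 the lowest value in the table, and a value of 5 or more was taken as measured. Between 42.9% and 43.3% of probe sets were measured on each array. The defining T cell markers were not all present in MyLa. CD3D read 11.87 and 12.28 on the MyLa arrays (control, IL-32γ), CD3G 8.63 and 8.24, and CD2 11.13 and 11.02 (12.94 and 12.91 in HH). CD3E, CD4 and CD5 were below 5 in MyLa and between 10.72 and 13.04 in HH. LCK was below 5 on every array, and TRAC had no probe set under its symbol alone. The 4 B cell, 6 myeloid and mast cell, 3 keratinocyte and 3 NK cell markers with a probe set were below 5 on every array, with the highest reading 4.91 (MS4A1, HH control). Of 4 fibroblast markers 2 were measured, COL3A1 and COL1A1, with a highest reading of 13.16 in MyLa against 5.66 in HH. Their part in the results below was not tested. The 5′ control probe set of ACTB was 1.69 higher on the MyLa IL-32γ array than on the MyLa control array and 0.89 higher in HH, while its 3′ partner differed by -0.08 and -0.03. The lines differed too: the 5′ probe set read 10.12 and 11.81 in MyLa (control, IL-32γ) and 12.69 and 13.58 in HH. The 3′ probe set read 15.14 and 15.07 in MyLa and 15.27 and 15.24 in HH.

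IL13, IL5 and MAF were measured in MyLa alone, GATA3, IL4R and STAT6 in both lines, and IL4 and IL13RA1 in neither. Of the 20 probe sets, 6 were measured in both lines, 5 in MyLa only, 0 in HH only and 9 nowhere. Over the whole array, 24232 probe sets were measured in MyLa and 23855 in HH, on either array of the line. The shares measured in MyLa only and in HH only are not given here, so whether the split is unusual was not tested. The filter for testing (5 or more on at least 2 arrays) passed 11 probe sets of 6 genes. In bulk RNA, fewer cells that express a gene and less RNA per cell cannot be told apart.

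**Figure D1:**
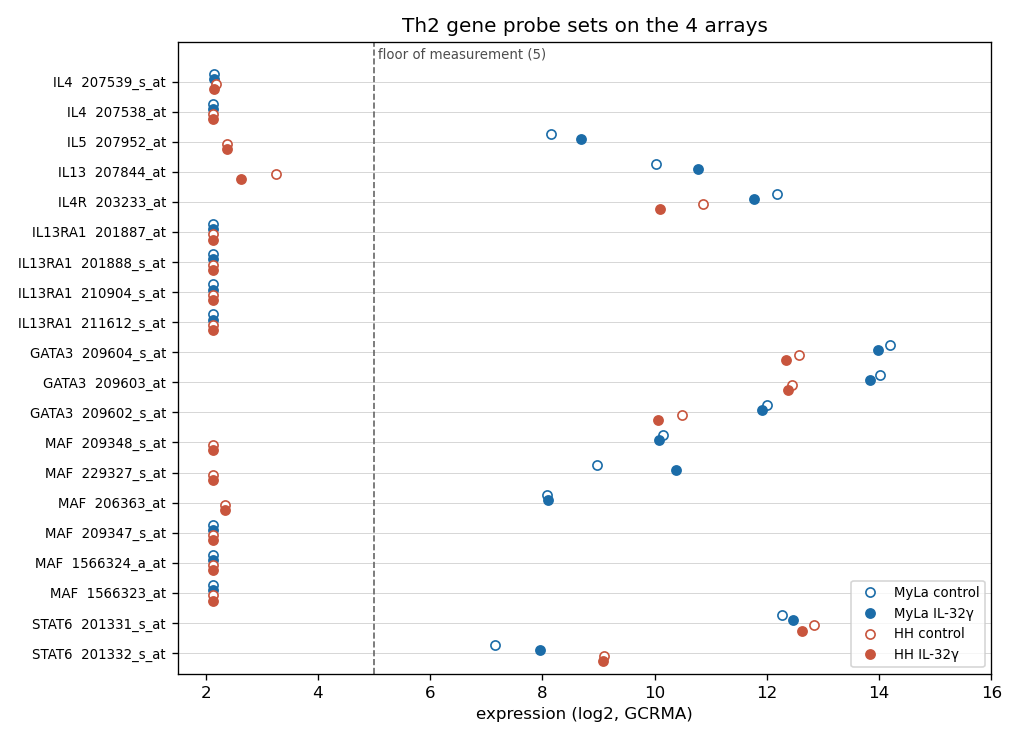
Log2 expression (x axis) of each of the 20 probe sets (y axis) on the 4 arrays, 1 point per array, with the floor of 5 dashed. IL5, IL13 and 3 probe sets of MAF lie above the floor in MyLa and below it in HH, while those of IL4 and IL13RA1 lie near 2.13 on all arrays.

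Among the cytokines, IL13, which acts on epithelium and mucus production, read 10.02 in untreated MyLa cells and 10.78 in those given IL-32γ. On the HH arrays it read 3.26 and 2.63, both below the floor. Both MyLa readings thus lay above both HH readings. How many of all probe sets separate the lines in this way was not counted, here or for the members below. With HH set to the floor, IL13 was at least 42.2-fold higher in MyLa (log2 difference 5.40 ± 0.30 SE, n = 2 arrays per line, limma adjusted p = 0.0011). Its spread in HH is 0 by construction, and it passed the filter through MyLa alone, so it could only read higher there. Its p-value is therefore a description and not a test. The same limit holds for IL5 and for the MAF probe sets measured in MyLa. A difference of this size or larger in favour of MyLa was found for 347 of 25306 tested probe sets (1.37%).

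IL5, the growth factor of eosinophils, showed the same split. It read 8.15 and 8.70 in MyLa (control, IL-32γ) and 2.38 on both HH arrays, at least 10.7-fold higher in MyLa (3.42 ± 0.22 SE, adjusted p = 0.0017). A difference as large was found for 3.94% of tested probe sets. IL4, the cytokine that Th2 cells make for their own differentiation, was not measured in either line. Its probe set 207539_s_at read 2.15 on 3 arrays and 2.19 on the HH control array, and 207538_at read 2.13 on all 4. In MyLa, therefore, probe sets of IL5 and IL13 gave a signal and those of IL4 did not.

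The promoters of IL13 and IL4 are shown because these genes are neighbours on the chromosome and only IL13 was measured. Each line gives the 250 bases before a transcription start in RefSeq (GRCh38.p14, plus strand, 5′ to 3′), for IL13 at chr5:132657923-132658172 and for IL4 at chr5:132673739-132673988. Capitals mark matches on either strand to the GATA motif (AGATAA, with A or T as its first letter and A or G as its last), the STAT6 motif (TTC and GAA with any 4 bases between) and the MAF motif TGCTGA.
IL13: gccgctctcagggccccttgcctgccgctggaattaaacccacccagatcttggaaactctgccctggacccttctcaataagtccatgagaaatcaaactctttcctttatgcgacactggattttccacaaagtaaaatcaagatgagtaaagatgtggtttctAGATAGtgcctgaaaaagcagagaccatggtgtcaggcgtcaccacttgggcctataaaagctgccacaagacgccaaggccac
IL4: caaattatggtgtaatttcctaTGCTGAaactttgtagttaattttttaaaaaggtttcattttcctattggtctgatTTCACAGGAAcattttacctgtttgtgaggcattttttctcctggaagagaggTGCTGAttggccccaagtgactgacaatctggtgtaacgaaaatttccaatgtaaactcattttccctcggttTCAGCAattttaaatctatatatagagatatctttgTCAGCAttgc

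The IL13 window held 1 GATA match, which begins 84 bases before the start. It held no match to the STAT6 motif or the MAF motif. A second RefSeq start of IL13 lies upstream, and its window (chr5:132656272-132656521) also held 1 GATA match, 51 bases before that start. The IL4 window held 1 STAT6 match, beginning 172 bases before the start, and 4 MAF matches, beginning 228, 119, 46 and 10 bases before it, but no GATA match. None of these matches overlapped another. Of 35116 such windows in the RefSeq table, 22.3% held a GATA match, 5.38% a STAT6 match and 14.0% a MAF match, and 6 held 4 or more MAF matches (a number chosen after the IL4 window was seen). A match is a string of letters and not a measured binding site.

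Of the genes around the cytokine genes, some were measured in HH and others were below 5 there. RAD50, the DNA repair gene between IL5 and IL13, read 11.86 and 11.89 in MyLa and 11.55 and 11.46 in HH. KIF3A, the kinesin gene next to IL4, read 11.92 and 11.86 in MyLa and 12.42 and 12.43 in HH. The non-coding transcript TH2LCRR, which RefSeq lists between RAD50 and IL13 and which was added after its values were seen, read 10.88 and 10.83 in MyLa and 10.67 and 10.39 in HH. These 3 were measured on all 4 arrays, while IL5 and IL13 among them were not.

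Of 12 protein-coding neighbours listed, 10 had a probe set and 7 were measured. On the brightest probe set of each gene, 4 of the 7 were called higher in MyLa and 0 lower, against 18.6% and 16.6% of 11010 genes. PDLIM4 and P4HA2 were below 5 in HH and could only be called higher, so this count is a description. PDLIM4, an actin-associated adaptor, was at least 38.7-fold higher (10.02 and 10.53 in MyLa, 2.15 and 2.35 in HH, adjusted p = 0.000538). P4HA2, a collagen prolyl hydroxylase, was at least 22.9-fold higher (9.82 and 9.22 in MyLa, 2.13 on both HH arrays, adjusted p = 0.0011). IRF1, an interferon-induced factor, was 2.21-fold higher (adjusted p = 0.0041), and SEPTIN8, a septin, 2.35-fold (adjusted p = 0.0451). The SEPTIN8 call was lost with no floor and with any of the 4 arrays left out (0.92 to 1.55). The IRF1 call was lost without the HH control (1.20) or the HH IL-32γ array (1.08), so these 2 calls are not firm. For PDLIM4 and P4HA2, at the floor in HH, leaving out an HH array cannot change the difference. Without a MyLa array they do not pass the filter, so leaving out arrays could not test their calls. The carnitine transporter SLC22A5 (-0.35) was not called, nor was RAD50 (0.37), and KIF3A (-0.53) stayed under 2-fold. With IL-32γ in MyLa, P4HA2 stood at -0.61 and SEPTIN8 at -0.63, 2 of 7 neighbours past 1.5-fold downward, against 7.65% of genes. None was past it upward on its brightest probe set, against 7.77%. Other measured probe sets of IRF1 (0.62) and PDLIM4 (0.59) passed it upward, and that of IRF1 differed by -0.80 in HH. The other measured probe sets differed by 0.06 for P4HA2 and by -0.04 and -0.02 for SEPTIN8. IL3, a growth factor of blood cells, SLC22A4, a second carnitine-family transporter, and SOWAHA were below 5 on every array.

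**Figure D2:**
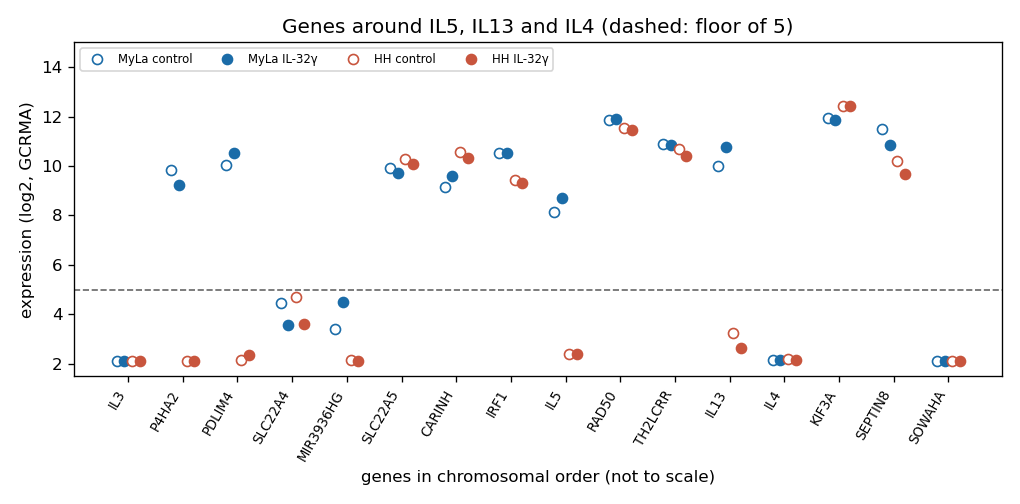
Log2 expression (y axis) on the 4 arrays for the brightest probe set of each gene with one between IL3 and SOWAHA, in chromosomal order and not to scale, with the floor of 5 dashed. P4HA2, PDLIM4, IL5 and IL13 lie above the floor in MyLa alone, and RAD50, TH2LCRR and KIF3A in both lines.

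Of the receptor chains, IL4R, shared by the receptors of IL-4 and IL-13, was measured on all arrays, and IL13RA1 on none. IL4R read 12.18 and 11.77 in MyLa (control, IL-32γ) and 10.87 and 10.09 in HH, so both MyLa arrays were above both HH arrays. The line difference was 2.82-fold (1.49 ± 0.34 SE, n = 2 arrays per line, limma adjusted p = 0.032), and 12.8% of tested probe sets differed as much in favour of MyLa. This call is not firm, since it was lost when the MyLa control array (difference 1.29), the MyLa IL-32γ array (1.70) or the HH IL-32γ array (1.10) was left out. In each line the IL-32γ array read lower than its control, by -0.42 in MyLa and -0.78 in HH. All 4 probe sets of IL13RA1, the chain that completes the IL-13 receptor, read 2.13 on every array.

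The receptor's partners, a list of 10 genes, had 8 measured, of which 4 were called higher in MyLa and 1 lower, against 18.6% and 16.6% of genes. Of these, IRS2 was below 5 in HH and could only be called higher. IL2RG, the common gamma chain, read 13.51 and 13.68 in MyLa and 13.46 and 13.65 in HH, and the lines overlapped. The kinase gene TYK2 was 4.18-fold higher in MyLa (adjusted p = 0.0022), and JAK2 was 2.71-fold lower (adjusted p = 0.0446). The JAK2 call was lost with no floor and without the MyLa IL-32γ array (-0.95), the HH control (-1.33) or the HH IL-32γ array (-1.54). JAK1 (-0.47, MyLa minus HH) and JAK3 (0.53), which carry the IL-4 signal, stayed under 2-fold. IRS2, an adaptor of the IL-4 receptor, was at least 11.0-fold higher in MyLa (adjusted p = 0.000287) and IRS1, its relative, 2.70-fold (adjusted p = 0.0057), a call lost with no floor and without the HH IL-32γ array (1.29). CSF2RB, the signalling chain of the IL-5 receptor, was 11.8-fold higher (adjusted p = 0.000799). IL5RA, its ligand-binding chain, and the decoy receptor gene IL13RA2 were below 5 on every array. With IL-32γ, JAK3 stood at 0.60 and JAK2 at -0.96 in MyLa, 1 of 8 partners past 1.5-fold each way, against 7.77% and 7.65% of genes. As the mean of their probe sets, averaged before the floor was set, these differences were -0.21 and 0.12. The other probe sets of JAK3 were below 5 on every array, so its mean rests largely on unmeasured readings. On other measured probe sets in MyLa, JAK1 ranged from -1.31 to -0.21 and IRS2 stood at 0.715. Their brightest probe sets differed by -0.01 and -0.04.

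GATA3 was bright in both lines and brighter in MyLa. Its probe set 209604_s_at read 14.20 and 13.97 in MyLa and 12.58 and 12.34 in HH, that is 3.09-fold higher in MyLa (1.63 ± 0.16 SE, adjusted p = 0.0041). Probe set 209603_at read 14.01 and 13.83 against 12.44 and 12.38 (2.86-fold, adjusted p = 0.0027), and 209602_s_at read 12.01 and 11.92 against 10.48 and 10.07 (3.23-fold, adjusted p = 0.0055). In each of the 3 probe sets both MyLa arrays lay above both HH arrays, and the differences ranged from 1.51 to 1.69. Differences as large in favour of MyLa were found for 12.6% to 11.1% of tested probe sets, so they are not rare on these arrays.

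MAF divided by line and by probe set. In MyLa, 209348_s_at read 10.15 and 10.08, 206363_at read 8.09 and 8.11, and 229327_s_at read 8.98 and 10.37 (control, IL-32γ), while in HH these 3 lay between 2.13 and 2.34. MAF was thus at least 34.6-fold (adjusted p = 0.000158), 8.56-fold (adjusted p = 0.000353) and 25.6-fold (adjusted p = 0.0057) higher in MyLa by these probe sets. As for IL13, HH was set to the floor, so only a higher reading in MyLa was possible. Differences as large were found for 1.60%, 4.72% and 2.01% of tested probe sets. The other 3 probe sets of MAF, 209347_s_at, 1566324_a_at and 1566323_at, read 2.13 on all 4 arrays. Which part of the MAF transcripts each probe set covers was not analysed here.

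STAT6 differed from the other measured members in that its readings were lower in MyLa. Probe set 201331_s_at read 12.28 and 12.47 in MyLa and 12.84 and 12.62 in HH, a difference that did not pass the test (-0.36 ± 0.15 SE, adjusted p = 0.122). Probe set 201332_s_at read 7.15 and 7.95 in MyLa and 9.10 and 9.08 in HH, 2.90-fold lower in MyLa (-1.54 ± 0.31 SE, adjusted p = 0.0238). Without the HH control array (-1.53) or the HH IL-32γ array (-1.55) it was not called. The arrays of the lines did not overlap in either probe set. Of all tested probe sets, 35.8% and 11.4% were lower in MyLa by as much. The 5′ control probe set of ACTB also read lower on both MyLa arrays than on both HH arrays, and its part in these differences was not tested.

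**Figure D3:**
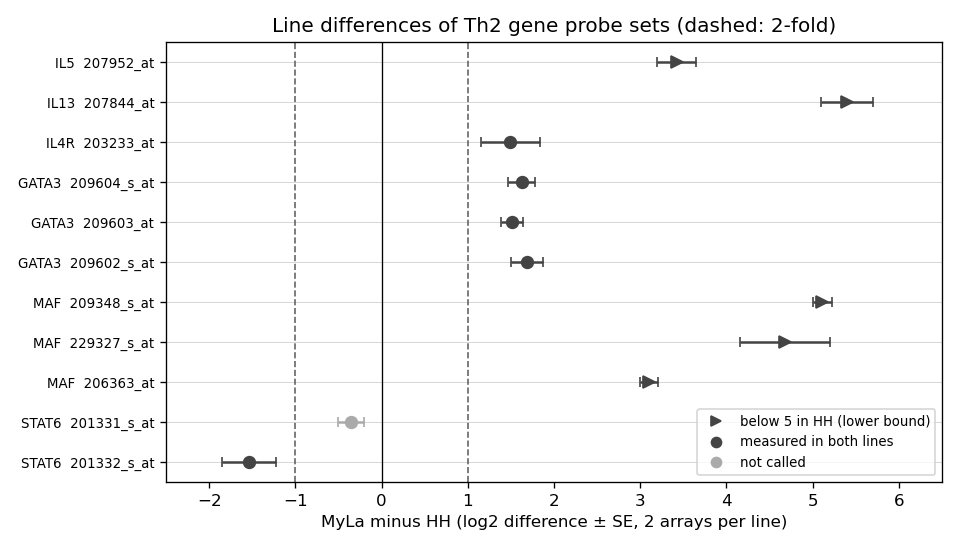
MyLa minus HH (x axis, log2 difference ± SE from limma, 2 arrays per line) for the 11 tested probe sets, with 2-fold dashed. Triangles are lower bounds where HH lay below 5, grey is not called, and 9 of 11 are called higher in MyLa and 1 lower.

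Counted together, 9 of the 11 tested probe sets were called higher in MyLa and 1 lower, at an adjusted p under 0.05 and 2-fold or more. Over all 25306 tested probe sets 18.2% were called higher and 16.8% lower, so line differences were common on these arrays. The median of the 11 was 1.69, against -0.01 over all. Probe sets of 1 gene share a transcript, and the 11 stand for 6 genes. The 2 arrays of a line differ by IL-32γ and are not known to be separate cultures, so the p-values measure only the spread between these arrays, which may be technical in part. The 5 probe sets below 5 in HH passed the filter through the MyLa arrays alone, so they could only read higher in MyLa. They enter the count and the median above, which are therefore a description and not a test. Their spread in HH is 0 by construction.

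IL-32γ was compared with control within each line, where 1 array per condition allows no test. In MyLa, 3 of 11 member probe sets stood at least 1.5-fold above control and 0 as far below it, against 11.0% and 9.13% of 24232 measured probe sets. They were MAF 229327_s_at (1.39, 2.63-fold), STAT6 201332_s_at (0.80, 1.74-fold) and IL13 (0.76, 1.69-fold). Larger positive differences were seen in 1.77%, 6.71% and 7.31% of measured probe sets. IL5, at 0.55 (1.46-fold), stayed just under the threshold. The brighter MAF probe set 209348_s_at differed by only -0.06 and the third, 206363_at, by 0.02. Likewise the brighter STAT6 probe set 201331_s_at differed by 0.19, so neither gene gave 1 answer across its probe sets. The 3 GATA3 probe sets differed by -0.22, -0.18 and -0.09. The median of the 11 was 0.02, against -0.05 over all measured probe sets. On the same arrays the 5′ control probe set of GAPDH was 0.68 higher with IL-32γ, beside the ACTB value above, and their part in these differences was not tested.

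In HH, 1 of 6 measured member probe sets passed 1.5-fold, IL4R at -0.78 (1.72-fold lower with IL-32γ), and 0 were higher, against 4.02% and 5.45% of 23855 measured probe sets. A lower value than that of IL4R was seen in 1.62% of them. All 6 differences were below 0 (that of STAT6 201332_s_at was 0.002 after quantile normalization), those of GATA3 at -0.24, -0.06 and -0.41 and those of STAT6 at -0.22 and -0.02, with a median of -0.23 against -0.03 over all measured probe sets. IL13, IL5 and MAF remained below 5 with IL-32γ in HH.

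**Figure D4:**
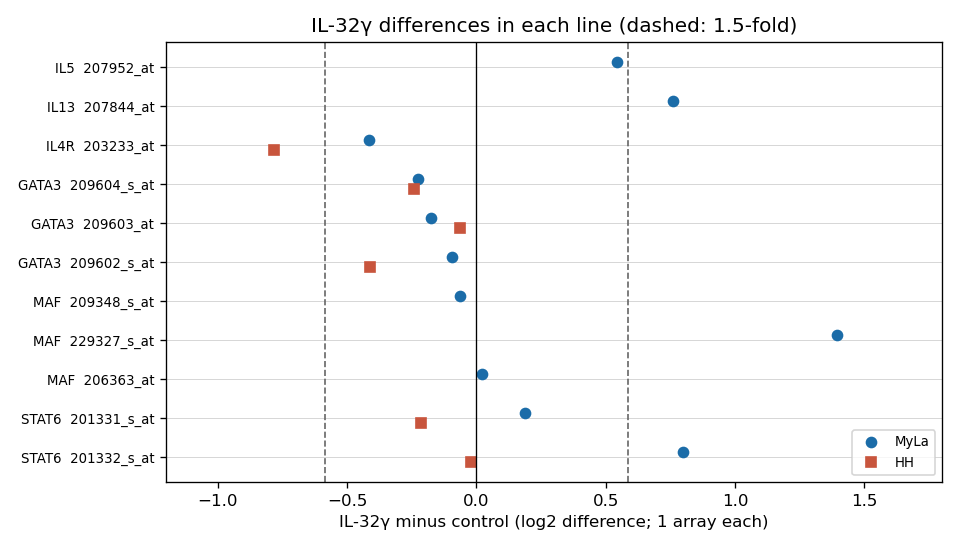
IL-32γ minus control (x axis, log2 difference, 1 array against 1) for the measured probe sets in MyLa (circles) and HH (squares), with 1.5-fold dashed. MAF 229327_s_at, STAT6 201332_s_at and IL13 lie beyond the line in MyLa, and IL4R in HH.

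With the lines as replicates (n = 2 lines), limma with line as a block called 0% of 25306 probe sets at an adjusted p under 0.05. None of the 11 member probe sets passed, with adjusted p from 0.483 (IL4R) to 0.981 (STAT6 201331_s_at). The mean difference of IL4R was -0.60 ± 0.16 SE, lower in 2 of 2 lines. It was the 1 member probe set among the 2571 (10.2%) that an unadjusted threshold of 0.05 would take. GATA3 209604_s_at stood at -0.23 ± 0.12 SE and was lower in both lines (adjusted p = 0.597). Those of IL13 (0.38), IL5 (0.27) and MAF rest on MyLa alone, since HH was at the floor.

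Other regulators that favour Th2 cytokine genes formed a list of 22 genes, of which 21 had a probe set and were measured. Between lines 6 were called higher in MyLa and 6 lower, against 18.6% and 16.6% of genes, with a median of -0.03 against 0.03 over all genes. PPARG and SATB1 were below 5 in HH and BHLHE41 in MyLa, so the direction of these calls was fixed by the filter. PPARG, a nuclear receptor of Th2 cells, was at least 84.2-fold higher in MyLa (adjusted p = 0.00017), and SATB1, which organises chromatin at the cytokine locus, at least 30.1-fold (adjusted p = 0.000623). STAT5A (17.2-fold, adjusted p = 0.000304) and STAT5B (3.61-fold, adjusted p = 0.0015), which open that locus downstream of IL-2, and NFATC2 (6.43-fold, adjusted p = 0.000551) and CEBPB (2.07-fold, adjusted p = 0.0072) were higher too. Lower in MyLa were GFI1, a repressor that supports Th2 cell growth (11.4-fold, adjusted p = 0.0022), LEF1 (4.29-fold, adjusted p = 0.000975), IRF4 (3.56-fold, adjusted p = 0.0018), BHLHE41 (at least 3.31-fold, adjusted p = 0.0318), RBPJ (2.61-fold, adjusted p = 0.0039) and NFATC3 (2.42-fold, adjusted p = 0.006). The call was lost for BHLHE41 at a floor of 6 (-0.73) and without either MyLa array, for NFATC3 without the HH control (-1.17) or the HH IL-32γ array (-1.38), and for RBPJ without the HH IL-32γ array (-1.33). For CEBPB it was lost without the MyLa control (0.95), the HH control (1.08) or the HH IL-32γ array (1.01). With IL-32γ in MyLa, 2 of 20 were past 1.5-fold upward, BATF (1.19) and NOTCH1 (0.90), and 2 downward, NFATC1 (-2.02, to 5.07, and -1.09 at a floor of 6) and GFI1 (-0.65), against 7.77% and 7.65% of genes. In HH 1 of 18 passed, BHLHE41 (-1.03), where 1.14% of genes were higher and 4.46% lower.

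A further list of 18 genes, 16 of them on the array, held genes of Th1 cells and repressors of GATA3 or STAT6. It also held SOCS genes, feedback inhibitors of cytokine signalling that need not oppose the Th2 programme, so its counts are not a measure of opposition to Th2 cells. TBX21, which encodes the Th1 factor T-bet, and IFNG, the Th1 cytokine, were below 5 on every array. Of 12 tested, 6 were called higher in MyLa and 0 lower, against 18.6% and 16.6% of genes, with a median of 1.63 against 0.03. SOCS3, TCF12 and HLX were below 5 in HH and could only read higher in MyLa, and IL12RB2, below 5 in MyLa, only lower. The count and median are therefore a description. BCL6, a repressor of GATA3 function, was 305-fold higher (13.50 and 13.22 in MyLa, 5.22 and 4.72 in HH, with the HH IL-32γ array set to the floor, adjusted p = 0.000156). SOCS3, a feedback inhibitor, was at least 81.2-fold higher (adjusted p = 0.00017), TCF12 at least 57.7-fold (adjusted p = 0.000147), ID2 15.5-fold (adjusted p = 0.0041, not called with no floor), SOCS1, an inhibitor of STAT6 signalling, 9.93-fold (adjusted p = 0.000322) and HLX at least 6.65-fold (adjusted p = 0.0016). With IL-32γ in MyLa, ID2 stood at 0.98 and STAT4 at -0.76, 1 of 12 past 1.5-fold each way, against 7.77% and 7.65% of genes. The other measured probe set of ID2 differed by 0.11, and the mean of its probe sets by 0.55, under 1.5-fold. IL12RB2, an IL-12 receptor chain, read 6.13 without and 5.13 with IL-32γ in HH. It was the 1 of 9 past 1.5-fold there, downward, against 4.46% of genes. At a floor of 6 its difference was -0.13.

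Of 18 listed targets of IL-4 and STAT6, 11 were below 5 on all arrays. Of 6 tested, 4 were called higher in MyLa and 1 lower, against 18.6% and 16.6% of genes. FCER2 was measured in MyLa alone and CCL22 in HH alone, so the direction of both calls was fixed by the filter. CISH, a feedback inhibitor, was 40.2-fold higher (adjusted p = 0.000742), BCL2L1, a survival gene, 18.1-fold (adjusted p = 0.0018), FCER2 (CD23) by at least 2.58 on the log2 scale (adjusted p = 0.0075) and the kinase gene PIM1 5.67-fold (adjusted p = 0.0081). CISH, BCL2L1 and PIM1 are also known targets of STAT5. CCL22, a ligand of the Th2 cell receptor CCR4, was at least 3.57-fold lower in MyLa (adjusted p = 0.0087). Without the HH control or the HH IL-32γ array FCER2 (2.58 each) and PIM1 (2.42 and 2.58) were not called. PIM1 was not called with no floor either, nor was CCL22 with no floor (-3.09) or a floor of 6 (-0.84). With IL-32γ in MyLa, FCER2 stood at 0.83, PIM1 at 0.82 and BCL2L1 at 0.73, 3 of 6 past 1.5-fold upward, against 7.77% of genes, with a median of 0.31 against -0.07 over all genes. By other probe sets the values were larger, 2.92 and 3.51 for BCL2L1 and 1.05 for FCER2, and the means of all probe sets, averaged before the floor was set, were 1.79 and 1.71. POSTN was the 1 past it downward, against 7.65% of genes. It stood at -1.17 or below, since its IL-32γ reading of 4.01 was under the floor. At a floor of 6 it differed by -0.17. In HH, CCL22 stood at 0.60, from 6.54 to 7.14. On the brightest probe sets it was the 1 of 5 past 1.5-fold, upward, against 1.14% of genes. Another probe set of BCL2L1 stood at 1.10 in HH, where its brightest differed by 0.01. The 5′ control probe set of ACTB was also higher with IL-32γ (1.69 in MyLa, 0.89 in HH), and its part in these differences was not tested.

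Surface and effector genes of Th2 cells numbered 18 on the list and 14 on the array, with 9 below 5 everywhere, among them CCR4, CCR8, PTGDR2 (CRTH2), IL1RL1 (the IL-33 receptor), IL17RB and IL10. Of 4 tested, the costimulator ICOS was at least 413-fold higher in MyLa (13.69 and 13.68 against 2.21 and 2.13, adjusted p = 0.000139) and IL2RA at least 229.8-fold (adjusted p = 0.000281). These were 2 of 4 called higher, and 1 was called lower, against 18.6% and 16.6% of genes. ICOS and IL2RA were below 5 in HH and could only be called higher, so this count is a description. TNFRSF8, which encodes CD30, was 17.5-fold lower (9.65 and 9.93 in MyLa, 14.02 and 13.82 in HH, adjusted p = 0.000501). CRLF2, the TSLP receptor, read 9.27 and 8.85 in MyLa and 8.43 and 8.02 in HH and was not called (adjusted p = 0.0534). None of these passed 1.5-fold with IL-32γ in either line.

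Genes whose profile over the 4 arrays was nearest to that of a member were found by Euclidean distance among 11258 genes, after the floor and centring. Nearest to IL13 were STOM (distance 0.06), PDLIM4 (0.22) and ADD2 (0.24), all above 9.9 in MyLa and below the floor in HH. PDLIM4 is also one of the chromosomal neighbours described above. Nearest to GATA3 were PHYH (0.06), ERI2 (0.07) and DHX40 (0.07), and nearest to IL4R were KLKB1 (0.05), POPDC2 (0.05) and DHRS11 (0.13). With 4 arrays such closeness is a description only.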

How the data were processed

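The deposited values are log2 expression per probe set, 1 array per line and condition. Per the submitters' processing notes the authors used GCRMA, and its version is not given here, nor whether all 4 arrays went through it as 1 set. The log2 scale was read from the values (2.13 to 16.0). Symbols came from the array annotation (41097 probe sets with 1 symbol, 1801 with several, 11777 not listed), and 41043 were updated by Entrez identifier through RefSeq (GRCh38.p14, which also gave gene order and the promoter windows). For gene lists the probe set with the highest mean stood for a gene. Other measured probe sets could pass 1.5-fold where the brightest did not, as for IKZF1 in MyLa (1.37 against -0.04), and not all are given.

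Values below 5 were set to 5. Within a line, IL-32γ minus control was taken for probe sets at 5 or more on at least 1 of its arrays. limma 3.58.1 (R 4.3.3) was fitted to probe sets at 5 or more on at least 2 arrays: IL-32γ with line as a block (1 residual degree of freedom), and MyLa against HH without a block (2). Tests were two-sided with Benjamini-Hochberg adjustment over all tested probe sets. Line calls needed an adjusted p under 0.05 and 2-fold. A probe set measured in 1 line alone passed the filter through that line and could only be called higher there. The fits were tested on simulated data. The number of arrays limits precision. Members and lists were chosen with earlier results of these data known. All member probe sets are given. Named list genes are those past 1.5-fold in a line, up to 4 per list by line difference, and others given beside them, chosen after their values were seen. The 3 nearest genes are given for IL13, GATA3 and IL4R. Alternatives were other floors, normalizations, probe set choices, fold thresholds, blocks, an intensity trend and leaving out arrays. Python 3.11.15 with pandas 2.3.3 and matplotlib 3.10.9 was used.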

Additional observations from a re-analysis of the deposited data

Results flagged for a closer look

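The STAT6 readings differed with IL-32γ in opposite directions in the lines, each from 1 array pair, and this difference was not tested. Probe set 201331_s_at was 0.19 higher in MyLa and differed by -0.22 in HH, so the responses were 0.40 apart. Probe set 201332_s_at was 0.80 higher in MyLa and differed by -0.02 in HH, which puts them 0.82 apart. Its HH difference is near 0 and was 0.002 after quantile normalization, so opposite directions do not hold for this probe set under that setting.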

How the results depend on the processing

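The 3 member probe sets past 1.5-fold with IL-32γ in MyLa became 1 when the brightest probe set (1) or the mean (1) stood for each gene, without _x_at and _s_at probe sets (1), and at 2-fold (1). In HH the 1 became 2 with no floor, where IL13 is read below 5, and 0 at 2-fold. Floors of 4 and 6, quantile normalization and centring left both counts as they were. No alternative gave a call for IL-32γ across lines. Between lines 8863 probe sets were called, 5758 with no floor, 3907 and 3256 at gene level (brightest, mean), and 4044 to 7294 with an array left out, namely 6921 without MyLa control, 7294 without MyLa IL-32γ, 4356 without HH control and 4044 without HH IL-32γ. Of the members, 10 were called, 5 and 4 at gene level, 5 without _x_at and _s_at probe sets, and 4 to 9 with an array left out. Without a MyLa array (4 each) the 5 probe sets measured in MyLa alone no longer pass the filter. Without an HH array their difference cannot change, since HH stands at the floor. Single member probe sets kept direction under all alternatives run, except STAT6 201332_s_at in HH, near 0 (0.002 after quantile normalization). MAF in MyLa, -0.06 on its brightest probe set, was 0.23 as the mean of its probe sets. Members lost the line call in 8 of 116 comparisons: IL4R, STAT6 201332_s_at and GATA3 209602_s_at with no floor, and the arrays named above. Among list genes, JAK2 (0.12) and JAK3 (-0.21) in MyLa reversed as the mean of probe sets, for JAK3 through probe sets below 5 on every array.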
